A study of Mus musculus with 50 samples.

Results

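The genes examined encode the proteins of the cytosolic ribosome, 86 of the 19224 gene symbols in a count matrix of single mouse blood-forming cells. A gene was a member when its symbol was Rpl or Rps followed by a digit, or Rplp0, Rplp1, Rplp2 or Rpsa, and pseudogene symbols ending in -ps and the Rps6k kinases were left out. Among the members, 83 reached 10 CPM (counts scaled to a common total per class of cells) over the kept cells, 49 of the large subunit and 34 of the small subunit by name. The rule by symbol also took in Rps19bp1, which encodes a binding partner of the Rps19 protein, and Rpl7l1, a distant relative of Rpl7, neither of which is a standard part of the ribosome.

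The study placed 1 haematopoietic stem cell from a beta-actin-GFP mouse, together with whole marrow of B6-Ly5.2 mice, into each lethally irradiated B6-Ly5.2 recipient. Of its 50 labelled samples 10 were collected 1 month after transfer, 26 after 4 months and 14 after 12 months, from marrow alone or from marrow and spleen. All samples share irradiation, transfer and enrichment for c-Kit, and cells were then sorted by surface markers or by GFP, so a cell may descend from the transferred stem cell or not. The cell names give a library and a number and 0 hold a sample title, so the matrix was treated as 1 pooled sample, with no comparison of months or tissues, no replicates and no p-values.

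Ribosomal proteins are made in nearly equal numbers, a single copy per ribosome for most, while the P1 and P2 proteins of the acidic stalk are present in several copies. Their messenger RNAs are among the most abundant of a cell, and most begin with a run of pyrimidines, the 5' terminal oligopyrimidine or TOP motif, through which mTORC1 and Larp1 set how much of them is translated. Blood formation is sensitive to their dose: loss of 1 copy of Rps19, Rpl5, Rpl11 and several others causes Diamond-Blackfan anaemia, and free Rpl5 and Rpl11 proteins bind Mdm2 and so stabilise p53. Stem cells are known for a low rate of protein synthesis.

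Pyrimidine runs near the members' annotated start sites differ between genes, including the pairs of related genes on which the results below turn. Windows of 30 bases, 15 before and 15 from the annotated start, come from RefSeq promoters of GRCm38.p6, and capitals mark the longest run that opens with C, continues with at least 4 letters C or T, and begins within 10 bases of the start.
Rpl27a, chr7:109519180-109519209, plus strand: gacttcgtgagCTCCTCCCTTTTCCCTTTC
Rpl15, chr14:18270972-18271001, minus strand: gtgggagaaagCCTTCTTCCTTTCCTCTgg
Rps27, chr3:90213634-90213663, minus strand: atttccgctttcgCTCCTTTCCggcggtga
Rps27rt, chr9:114982725-114982754, minus strand: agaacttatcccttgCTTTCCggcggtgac
Rps27l, chr9:66946071-66946100, plus strand: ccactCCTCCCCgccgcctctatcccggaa
Rpl22l1, chr3:28805493-28805522, plus strand: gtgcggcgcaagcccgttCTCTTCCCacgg
Rpl36a, chrX:134585639-134585668, plus strand: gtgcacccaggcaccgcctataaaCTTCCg
Rpl36al, chr12:69184053-69184082, minus strand: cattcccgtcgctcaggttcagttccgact

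Rpl27a and Rpl15 had the longest of the runs shown, 20 bases (going on past the window) and 17 bases, while Rpl36al had no run of 5 bases or more. Of the 66 members with a window, 40 (60.6%) had such a run on the sense strand, against 34.4% of 27025 genes with windows of the same length. A run of at least 8 bases was present in 24 members (36.4%) and in 9.43% of all genes. The absence of a run says only that these letters were not in the window around the annotated start. A marked run need not lie at the first base of the transcript, so it is not by itself a TOP motif. The run of Rps27l began 10 bases before the annotated start and that of Rpl36a 9 bases after it. The 24 members with long runs and the 26 measured members with runs under 5 bases had median log2 ratios of −0.16 and −0.26 in Procr+ cycling cells, −0.05 and −0.21 in Procr-low cycling cells and −0.30 and −0.34 in lineage-marker cells, each against Procr+ non-cycling cells. The members with long runs had the higher median in all 3 comparisons, which share those control cells, and the gaps were not tested.

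The cells kept had 1000 or more genes counted and no more than 10% mitochondrial counts. They numbered 4185 in 67 libraries with a median of 122013 counts and 4186 genes; library totals ran from 1665151 to 26184494. Procr, which encodes the stem cell surface protein EPCR, at 50 CPM or more marked Procr+ cells. Cycling cells had at least 6 of 32 cell cycle genes at 50 CPM or more and non-cycling cells at most 2. Lineage-marker cells had at least 4 of 8 markers of 1 mature lineage at 100 CPM or more, and more than of any other lineage. The classes held 1954 Procr+ non-cycling cells (46.7% of kept cells, exact 95% interval 45.2 to 48.2), 182 Procr+ cycling cells (4.35%, 3.75 to 5.01), 206 Procr-low cycling cells (4.92%, 4.29 to 5.62) and 772 lineage-marker cells (18.4%, 17.3 to 19.7). The other kept cells were 669 Procr-low non-cycling cells, 354 between the cell cycle limits and 48 with tied lineages. These classes are ranges of marker levels, not cell types. In Procr+ non-cycling cells the stem cell genes Mecom, Hlf and Ly6a stood at 164, 227 and 847 CPM.

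Lineage-marker cells were a mixture: 272 of the 772 also had Procr at 50 CPM or more and 427 had it under 10 CPM. A set of 3 libraries, with 260 kept cells, stood apart in several members, as given after the related pairs. Without them the median log2 ratios of the 4 main comparisons below were −0.22 in Procr+ cycling, −0.08 in Procr-low cycling, −0.30 in lineage-marker and −0.05 in Cd34+ Flt3+ cells. Whether reads or molecules were counted is not given. A detected gene had a median of 10 counts in a cell, so amplified copies may be included, and every interval covers counting error only.

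Ribosomal protein genes took 22.6% of all counts in Procr+ non-cycling cells, with a median per cell of 22.6% and a 5th to 95th percentile range of 16.9 to 28.0%. Over 60 libraries with at least 5 such cells the share ran from 18.3% through a median of 22.7% to 31.7%. Procr-low non-cycling cells lay close by, at 22.0% of counts (56 libraries, 17.5 to 27.9%). The share was lower in Procr+ cycling cells, at 18.8% of counts and a median per cell of 19.4% (9 libraries, 16.1 to 25.7%), and in Procr-low cycling cells, at 20.2% and 20.3% (13 libraries, 16.0 to 26.8%). The ranges over libraries of cycling and non-cycling cells overlapped. Lineage-marker cells had 17.8% of their counts in the members (exact interval 17.7 to 17.8) and the widest spread between cells, 2.84 to 30.5% at the 5th and 95th percentiles. A share is relative: a smaller one can mean less ribosomal protein mRNA or more of other RNA, and these cannot be told apart in such counts.

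**Figure D1:**
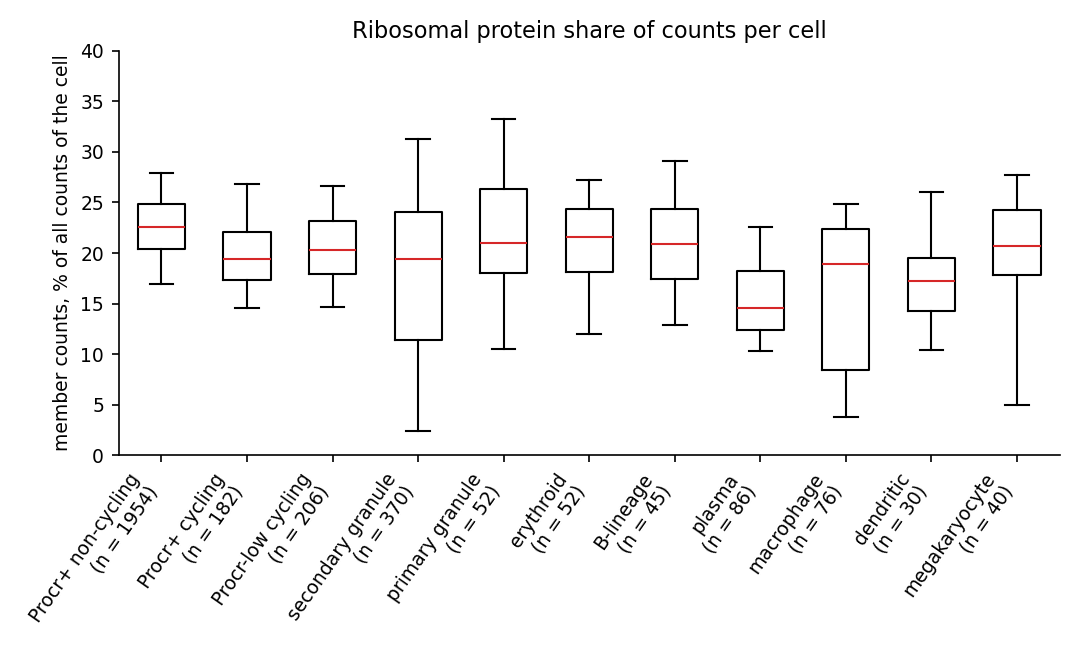
Counts in the 86 ribosomal protein genes as a percentage of all counts of a cell (y axis), by class of cells (x axis, with the number of cells). The line in each box is the median, the box the 25th to 75th percentiles and the whiskers the 5th and 95th percentiles; the median is 22.6% in Procr+ non-cycling cells and 14.6% in plasma cells, and secondary granule cells spread from 2.33 to 31.3%.

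Within Procr+ non-cycling cells most members varied little between libraries. Over 57 libraries with at least 10 such cells the median member had a standard deviation of 0.23 in log2 CPM, against 0.27 for the 206 other genes at 500 CPM or more. Rps9, a small-subunit protein gene, varied least (SD 0.12, 4230 to 6120 CPM over libraries), and Rpl6, Rps7 and Rps14 were also among the least variable. Rpl7a varied most (SD 0.73, 24.5 to 239 CPM), followed by Rpl24, Rps19bp1, Rpl36 and Rps21. Rpl7a, Rpl24 and Rps19bp1 had low levels, with medians of 83.4, 11.8 and 129 CPM over libraries. Rpl36 and Rps21 were lower in the 3 libraries that stood apart than in any other. Over the 1954 cells the share had a Spearman rho of 0.03 with total counts and 0.12 with genes counted, as a description of cells that share libraries.

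Among the members with the most counts over all kept cells were the large-subunit genes Rpl13 (7070 CPM) and Rpl32 (5430 CPM) and the small-subunit genes Rps27 (5830 CPM) and Rps29 (4680 CPM). Scaled by exon length these became 2730 CPM per kb for Rpl13, 5640 for Rpl32, 5590 for Rps27 and 6750 for Rps29, which put Rps29 first of these 4. Since the method enriches the 3' ends of transcripts, counts need not scale with length. At the other end, 3 members did not reach 10 CPM, and each encodes a tissue-restricted copy of a standard protein. Rpl3l, known from striated muscle, had 909 counts in 58 cells (1.39%). Rpl39l, known from testis, had 850 counts in 57 cells (1.36%), and Rpl10l, a testis-expressed retrogene, had 7 counts in 7 cells (0.167%).

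Some standard members with low counts overlap or resemble other genes. Rpl24 had 12.3 CPM and was counted in 52.1% of cells; 47.0% of its exon bases lie under another annotated gene, and 81.3% of the 50-base words in its last 300 transcript bases occur in other genes. Rpl7a had 111 CPM, and its last bases share words with 65 other genes. Rpl13a had 145 CPM, with a unique end but 35.4% of exon bases overlapped. Their part in the low counts was not tested, and the treatment of reads matching several genes is not stated by the labels or notes used here. In all, 29 members had no such shared word and 39 shared at least 50% of their words with other genes, so the levels of the latter are uncertain.

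In Procr+ cycling cells, 71 of 83 measured members were lower than in Procr+ non-cycling cells, against 55.4% of all 8611 genes at 10 CPM or more. The median member had a log2 ratio of −0.22 (lowest −0.67, highest 0.34), and the median of all genes was −0.06. The median member was lower in each of the 9 libraries that held at least 5 cells of both classes, with library medians from −0.36 to −0.01, but in 5 of the 9 it was below that library's median gene. The difference was small per gene: 3 members were lower by at least 0.5, against 15.0% of all genes, and 0 were higher by 0.5, against 13.0%. Cycling cells carried more counts (median 154940 against 128580.5 per cell), and with every cell thinned to 20000 counts the median member was −0.14, with 67 of 83 lower. Giving each cell equal weight made it −0.15, with 61 lower.

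The 3 members past 0.5 were small-subunit genes. Rps27, whose zinc finger protein is named metallopanstimulin, had 3250 CPM, 4340 and 6260 CPM (lowest, median and highest) over 9 libraries of Procr+ cycling cells and 4560, 6500 and 8730 CPM over 60 libraries of Procr+ non-cycling cells. Its summed level was 4310 CPM against 6610 CPM, a log2 ratio of −0.62. It was lower in 9 of 9 libraries that held both classes, though the 2 ranges overlapped. Every 50-base word at the end of Rps27 occurs in other genes, 9 in all, so its level is uncertain. Rps27rt, a retrogene of Rps27, was lower by 0.67, at 964 against 1530 CPM. The 2 genes share 222 of 251 of the 50-base words at their ends and their counts kept a near-constant ratio, 22.4 and 23.2 Rps27rt counts per 100 of Rps27, so they count as 1 measurement. Rps9 stood at 3580 CPM against 5130 CPM, a log2 ratio of −0.52, and was lower in 9 of 9 libraries. Rps7 and Rpl13 followed at −0.47 each, lower in 8 of 9 libraries.

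The members that were higher in Procr+ cycling cells were fewer and moved less evenly between libraries. Rpl7a, at 137 against 108 CPM, had the highest ratio, 0.34, but was higher in 5 of 9 libraries. Rps27l, a paralogue of Rps27 that is a known p53 target, was at 931 against 755 CPM, a ratio of 0.30, higher in 6 of 9. Rpl36al, the autosomal retrocopy of X-linked Rpl36a, followed at 0.18, and Rpl29 was at 0.09.

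In Procr-low cycling cells the members lay nearer to 0. The median member was at −0.10 (lowest −0.65, highest 0.55), 53 of 83 were lower against 56.0% of all genes, and the median of all genes was −0.08. The library medians ran from −0.42 to 0.03 and lay below 0 in 9 of 11 libraries and below the library's median gene in 6. A total of 2 members were lower by 0.5 (22.5% of all genes) and 1 was higher (15.5%). Taken as a group the members were hardly apart from the median gene here: centred on it, their median was −0.01. The 206 other genes at 500 CPM or more had an uncentred median of 0.02. Without the library with most such cells the median member was −0.17, with 68 lower. Rps27rt and Rps27 were again lowest, at −0.65 and −0.63, and Rps27, Rpl13, Rps7 and Rps9 were each lower in 11 of 11 libraries. The control cells are the same as in the comparison above. Rps27l ran over 13 libraries from 795 through 1070 to 1550 CPM, against 203, 759 and 1150 CPM over the 60 libraries of Procr+ non-cycling cells. Its ratio was 0.55, and it was higher in 9 of 11 libraries with both classes. Rps12 (0.33), Rpl36al (0.32) and Rpl28 (0.31) came next.

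**Figure D2:**
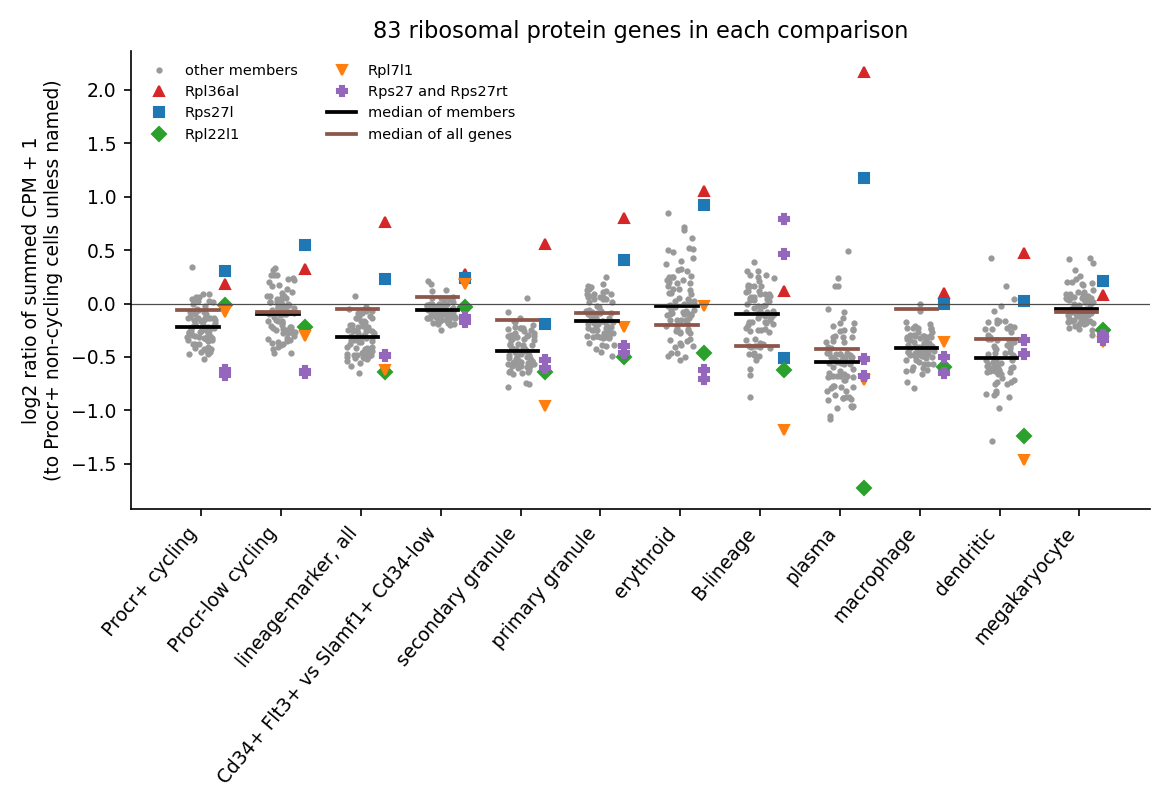
Log2 ratio of summed CPM plus 1 (y axis) for the 83 measured members in each comparison (x axis); grey points are members and coloured symbols Rpl36al, Rps27l, Rpl22l1, Rpl7l1, Rps27 and Rps27rt, with black bars the median member and brown bars the median of all genes. The members cluster closely around medians of −0.22 and −0.10 in cycling cells, and Rpl36al (2.17) and Rpl22l1 (−1.73) lie farthest out in plasma cells.

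Genes that build ribosomes or share the TOP motif were divided between higher and lower in cycling cells. Of 19 measured ribosome assembly genes, 9 were higher in Procr+ cycling cells (1 past 0.5) and 13 in Procr-low cycling cells (7 past 0.5), with medians of −0.04 and 0.10. Of all genes, 13.0% were higher by 0.5 in Procr+ cycling cells and 15.5% in Procr-low cycling cells, and 55.4% and 56.0% were lower than 0. Nop56, a box C/D snoRNP core protein gene, was at 0.61 and 0.78, and Dkc1, the pseudouridine synthase gene, at 0.44 and 0.78. Of 17 translation elongation and other TOP genes, 9 and 12 were higher. Among them Eef1a1, the main elongation factor gene, was at −0.39 and −0.58, but Npm1, which encodes the nucleolar chaperone nucleophosmin, was at 0.22 and 0.31. Of 11 measured regulators of mTORC1 and TOP translation, 5 were higher in Procr+ cycling and 10 in Procr-low cycling cells, 0 and 2 of them past 0.5. Of the ribosomal protein genes outside the symbol rule, Fau was at −0.38 and −0.28 and Rack1 at −0.09 and 0.17.

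Within Procr+ non-cycling cells the members hardly differed between Cd34+ Flt3+ cells, a pattern of multipotent progenitors, and Slamf1+ cells low in Cd34 and Flt3, a pattern of long-term stem cells. The 338 and 103 cells had 22.2% and 23.3% of counts in the members. The median member was at −0.06 and the median of all genes at 0.06; 65 of 83 members were lower, against 44.0% of all genes, and 0 passed 0.5 in either direction, against 9.95% of all genes below and 16.2% above. Rpl7 was lowest (2480 against 2950 CPM, −0.25), followed by Rps13 (−0.20), Rpl35a and Rpl37 (−0.19 each) and Rpl11 (−0.18). Rpl36al was highest (65.7 against 54.1 CPM, 0.28), followed by Rps27l (0.24), Rpl7a (0.21), and Rpl7l1 and Rpl13a (0.18 each). Only 2 libraries held at least 5 cells of each kind, and both are among the 3 that stood apart, so a direction over libraries carries little. The mean over single cells gave 55 lower.

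In lineage-marker cells, 80 of 83 members were lower than in Procr+ non-cycling cells, against 54.0% of all genes. The median member was at −0.31 (lowest −0.65, highest 0.76), the median of all genes at −0.05, and the median member was lower in 23 of 25 libraries (library medians from −0.82 to 0.07) and below the library's median gene in 17. By at least 0.5, 10 members were lower, against 18.8% of all genes, and 1 was higher, against 20.2%. Lineage-marker cells with Procr under 10 CPM gave −0.36, with 77 lower. A lower limit of 3 of 8 markers gave −0.18, with 74 lower. Lineage-marker cells were shallower (median 81797.5 counts); thinned to 20000 counts the median member was −0.31.

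Rps7, which with Rps19 and Rpl5 belongs to the Diamond-Blackfan genes, was lowest. Over 32 libraries of lineage-marker cells it ran from 1420 through 3290 to 5430 CPM, against 3980, 4760 and 6130 CPM over 60 libraries of Procr+ non-cycling cells; its ratio was −0.65, lower in 24 of 25 libraries. Rpl22l1, a paralogue of Rpl22 whose own protein is needed in lymphocyte development, was at 478 against 746 CPM (−0.64, 21 of 25 libraries). Rpl7l1 was at −0.62, Rpl5 at −0.58 and Rps19 at −0.56. All 18 Diamond-Blackfan genes were lower, 5 of them past 0.5, with a median of −0.32 that is near that of all members. The other genes past 0.5 in that list were Rpl15 and Rps28, at −0.51 each. The 6 small-subunit core genes were lower (median −0.40), with Rps6, the target of the S6 kinases, past 0.5, and so were the 4 acidic stalk genes (−0.19) and the 4 X-linked members (−0.30), 0 of them past 0.5. Rpl36al (104 against 61.2 CPM, 0.76, higher in 21 of 25 libraries) and Rps27l (886 against 755 CPM, 0.23, higher in 18 of 25) stood at the top, and Rps12 followed at 0.07. Rpl28 (−0.03) and Rpsa (−0.04) were nearly level.

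The lineages differed. Secondary granule cells, 370 cells with markers of maturing neutrophils such as Ngp, Camp and Ltf, had 16.4% of counts in the members. They were a mixture: the share was 19.2% in 151 cells with Procr at 50 CPM or more and 15.0% in 188 under 10 CPM. Over all 370 cells the median member was −0.44 and 81 of 83 were lower, against 57.8% of all genes. By 0.5, 35 were lower (27.7% of all genes) and 1 was higher (22.8%). The median of all genes was −0.15, and that of the 206 other genes at 500 CPM or more was −0.25. Rpl7l1 (−0.96), Rps7 (−0.78), Rpl5 (−0.75), Rpl15 (−0.74) and Rpl13 (−0.66) were lowest and Rpl36al (0.56) was highest, followed by Rps12 (0.05). Of the Diamond-Blackfan genes 18 of 18 were lower, 8 past 0.5. Library medians ranged widely, from −1.95 to 0.03 in 9 libraries, with 8 below 0 and 7 below the library's median gene. The 5 libraries with the most of these markers in Procr+ non-cycling cells also bore on it: without them the median was −0.68.

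The share in these cells changed with the number of markers. It had a median of 22.6% in cells with 4 of the 8 markers, 23.5% with 5, 21.8% with 6, 16.1% with 7 and 8.76% with all 8. The 5 groups held 56, 75, 73, 86 and 80 cells. Of the 80 cells with 8 markers, 29 had under 5% of counts in the members, against 1 of the 56 with 4. The median Procr level was also lower in cells with more markers, at 67.0 CPM with 4 markers, 37.4 CPM with 5, 55.6 CPM with 6 and 0.0 CPM with 7 and 8. Procr+ non-cycling cells with 0 to 3 of the markers had medians between 22.0 and 22.9%. Since the markers are part of the total, their own counts lower the share of other genes, and how much of the step this makes was not tested.

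**Figure D3:**
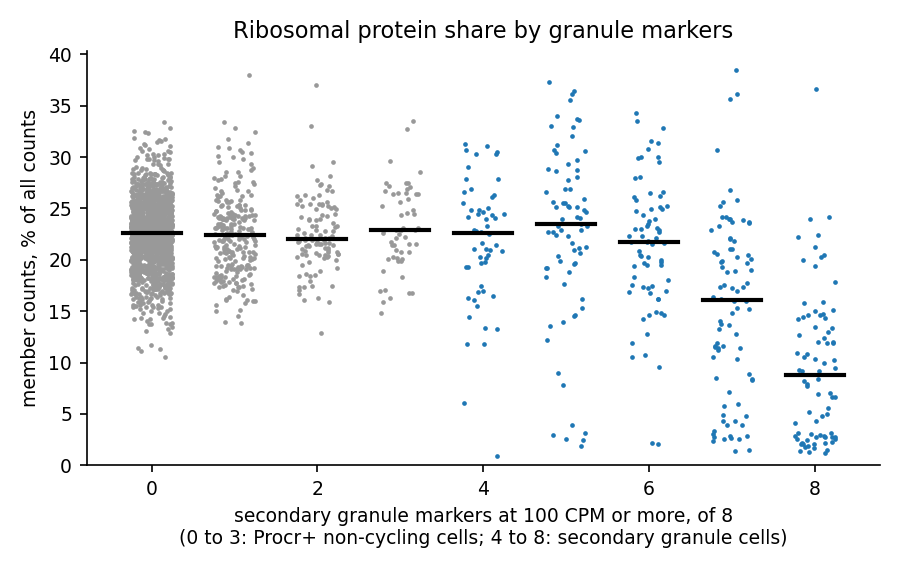
Counts in the members as a percentage of all counts of a cell (y axis) by how many of 8 secondary granule markers reached 100 CPM (x axis); points are cells (grey, Procr+ non-cycling cells with 0 to 3 markers; blue, secondary granule cells with 4 to 8) and bars medians. The median stays between 21.8 and 23.5% up to 6 markers and is 16.1% with 7 and 8.76% with 8.

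Plasma cells, 86 cells with antibody-secretion markers such as Jchain and Mzb1, had 15.6% of counts in the members, the lowest share of the 8 lineages described. Their median member was −0.55 and 77 of 83 were lower, against 67.5% of all genes; 49 were lower by 0.5 (47.3% of all genes) and 2 higher (17.9%). The median of all genes was −0.43, so that relative to the median gene the members were at −0.12. The 206 other genes at 500 CPM or more had a median of −0.26. In 8 of 8 libraries the median member was lower, and in 4 of the 8 it was below that library's median gene. Behind Rpl22l1 the lowest were Rpl3 (−1.08), Rps19 (−1.05), Rpl36a (−0.98) and Rps18 (−0.97), each lower in 8 of 8 libraries. Of the Diamond-Blackfan genes 17 of 18 were lower, 11 past 0.5, and of the ribosome assembly genes 16 of 19 were lower, 15 past 0.5, with Dkc1 at −1.94 and Fbl, the gene of the rRNA methylase fibrillarin, at −1.27. After Rpl36al and Rps27l the highest members were Rpl41 (0.49), Rpl10 (0.24) and Rps24 (0.16).

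Erythroid cells had a share near that of Procr+ non-cycling cells. These 52 cells, with markers such as Klf1 and Epor, also had a median of 17 of the 32 cell cycle genes and 250085.5 counts. The members took 21.0% of their counts, with a median ratio of −0.02 beside −0.20 for all genes. Centred on the median gene the members' median was 0.18, but the 206 other genes at 500 CPM or more had an uncentred median of 0.04. Of 83 members 46 were lower, against 58.9% of all genes, 3 by 0.5 (37.6%), and 9 were higher by 0.5 (21.4%). Rps27 (−0.71), Rps27rt (−0.62), Rps7 (−0.53) and Rpl13 (−0.50) were lowest. Rpl36al (1.05), Rps27l (0.92), Rpl13a (0.85), Rps12 (0.72) and Rpl7a (0.69) were highest, and Rps2 was at 0.52. Only 2 libraries held at least 5 cells of both classes. Rps27rt, Rps7, Rpl13a and Rps12 had the same direction in 1 of the 2. Rps27, Rpl13, Rpl36al, Rps27l and Rpl7a had it in 2 of 2. Ribosome assembly genes were higher in 16 of 19, 10 past 0.5, with Nop56 at 1.02 and Ncl, the nucleolin gene, at 0.94. Leaving out the richest library moved the members' median to −0.15, and the cells with Procr under 10 CPM gave 0.08.

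The 76 macrophage cells, with complement genes such as C1qa among their markers, had a median member at −0.42. The median of all genes was −0.05, but the 206 other genes at 500 CPM or more had a median of −0.30. Of the members 80 of 83 were lower against 53.2% of all genes, 18 by 0.5 against 20.7%. By 0.5, 0 were higher against 24.6%. In the 4 libraries that held at least 5 cells of both classes the median member was nearer to 0, from −0.06 to −0.01. It was below the library's median gene in 1 of the 4. Rps19bp1 (−0.79), Rpl13a (−0.73), Rpl9 (−0.66), Rps27rt (−0.65) and Rpl24 (−0.63) were lowest, Rpl36al highest at 0.10, then Rps27l and Rpl7a at 0.00, Rps12 at −0.07 and Rpsa at −0.17. Rps19 (−0.60), Rpl5 (−0.57), Rpl15 (−0.57) and Rps27 (−0.50) were lower too, with Rps7 (−0.62), Rps6 (−0.62), Rps14 (−0.59) and Rpl36a (−0.53). The median was −0.13 when the library richest in these cells was left out. Only the cells with Procr under 10 CPM gave −0.92: these 33 cells had a median share of 8.05% and 36 cells with 50 CPM or more had 20.9%.

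The 30 dendritic cells had a median member at −0.51. All genes had a median of −0.33 and the 206 other genes at 500 CPM or more one of −0.21. Of the members 78 were lower (61.1% of all genes), 42 past −0.5 (44.5%) and 0 past 0.5 (23.9%). Rpl7l1 (−1.46), Rpl36a (−1.29), Rpl22l1 (−1.24), Rpl24 (−0.98) and Rps28 (−0.87) were lowest, and Rpl36al (0.47), Rpl7a (0.43), Rpl35a (0.04) and Rps27l (0.02) among the highest. A limit of 3 of 8 markers moved the median to −0.13. No library had 5 of these cells. The 45 B-lineage cells, with markers such as Cd79a and Ebf1, stood at −0.10 beside −0.40 for all genes, or 0.30 relative to the median gene. The 206 other genes at 500 CPM or more had a median of −0.21. Of the members 51 were lower (64.6% of all genes), 7 past −0.5 (46.8%) and 1 past 0.5 (20.8%). Here Rps27 was at 9090 against 6610 CPM, a ratio of 0.46, and Rps27rt at 0.79, opposite to cycling and erythroid cells, while Rpl7l1 (−1.18), Rpl7a (−0.87), Rpl15 (−0.67), Rpl22l1 (−0.62) and Rps28 (−0.61) were lowest. In 3 libraries of B-lineage cells Rps27 ran from 7280 through 8580 to 13200 CPM. The lowest and the middle of them are within the range of Procr+ non-cycling libraries. Rps10 (0.39), Rps20 and Rps13 (0.30 each) were next. Of the 45 cells 18 came from 1 library, and only 1 library held at least 5 cells of both classes. In that library Rps20 and Rps28 did not keep their direction, while the other members named for B-lineage cells did.

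The 40 megakaryocyte cells were at −0.05, with 47 lower (55.7% of all genes) and 0 past 0.5 either way (24.3% of all genes below, 14.9% above); the 17 of them with Procr under 10 CPM gave 0.13. The 52 primary granule cells were at −0.16, with 61 lower (55.2%), 0 past −0.5 (27.5%) and 1, Rpl36al at 0.80, past 0.5 (18.6%). Thinned to 20000 counts their median was 0.01. Their lowest members were Rpl22l1 (−0.50), Rps7 (−0.49) and Rps27 (−0.46).

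In plasma cells the members farthest from the rest were genes of related pairs, and a ratio within a pair does not depend on scaling. Rpl36al (GRCm38 chr12:69182731-69184083) and X-linked Rpl36a (chrX:134585654-134588062) encode nearly the same protein, and their last 300 transcript bases share 0 words of 50 bases. Procr+ non-cycling cells had 2.34 Rpl36al counts per 100 of Rpl36a, with a range over 60 libraries of 1.07 to 4.19. Plasma cells had 21.0, with 10 libraries from 4.07 through 18.4 to 57.4, so that the ranges overlapped only at their edge. The summed level of Rpl36al was 278 CPM (exact Poisson interval 267 to 290) in plasma cells and 61.2 CPM (60.3 to 62.2) in Procr+ non-cycling cells, a log2 ratio of 2.17. It was higher in 7 of 8 libraries that held both, and Rpl36a was lower in 8 of 8. The within-pair ratio was higher in plasma cells in 8 of 8 libraries, and the log2 change of that ratio stayed between 2.19 and 3.33 over the alternatives tried. Over lineage-marker cells as a whole it was 5.58 per 100, higher in 24 of 25 libraries. In Procr+ and Procr-low cycling cells it was 3.10 and 3.29. Another annotated gene covers 24.5% of the exon bases of Rpl36al, and its end shares 68.9% of its words with 3 pseudogenes or gene models. The level of Rpl36al is therefore uncertain without the strand of the reads. Every 50-base word at the end of Rpl36a also occurs in other genes, 7 in all. The level of Rpl36a and the within-pair ratio are therefore uncertain too.

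Rps27l (GRCm38 chr9:66946086-66949516) has an end that shares no 50-base word with another gene. Every such word at the end of Rps27 occurs in other genes, 9 in all, so the level of Rps27 and the within-pair ratio are uncertain. Procr+ non-cycling cells had 11.4 Rps27l counts per 100 of Rps27, against 21.6 in Procr+ cycling, 25.8 in Procr-low cycling, 35.3 in erythroid and 41.3 in plasma cells. It was higher than in Procr+ non-cycling cells in 8 of 9, 11 of 11, 2 of 2 and 7 of 8 libraries. B-lineage cells had 5.84. In plasma cells Rps27l stood at 585, 1480 and 2310 CPM (lowest, median, highest of 10 libraries), and its summed level of 1700 CPM gave a ratio of 1.17. In cycling, erythroid and plasma cells Rps27l was higher and Rps27 lower, and both enter the within-pair ratio. Of other p53-linked genes, Cdkn1a, which encodes the cell cycle inhibitor p21, was at 0.82 and 0.96 in the 2 cycling classes, and Mdm2 at −0.63 and −0.04.

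Rpl22l1 (GRCm38 chr3:28805436-28807424) moved the other way. There were 55.1 counts of it per 100 of Rpl22 in Procr+ non-cycling cells (60 libraries, 32.4 to 81.6), 62.2 in Procr+ cycling cells and 18.7 in plasma cells (10 libraries, 5.98 to 38.5), with dendritic cells at 24.5. In plasma cells its level was 224 CPM (exact Poisson interval 214 to 234) against 746 CPM (743 to 749), a ratio of −1.73, lower in 8 of 8 libraries, and the within-pair ratio was lower in 8 of 8. Rpl22 itself was at 1200 against 1360 CPM. In lineage-marker cells as a whole the within-pair ratio was lower in 17 of 25 libraries. The end of Rpl22l1 shares 63.3% of its words with 3 other gene models, and 0 with Rpl22.

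**Figure D4:**
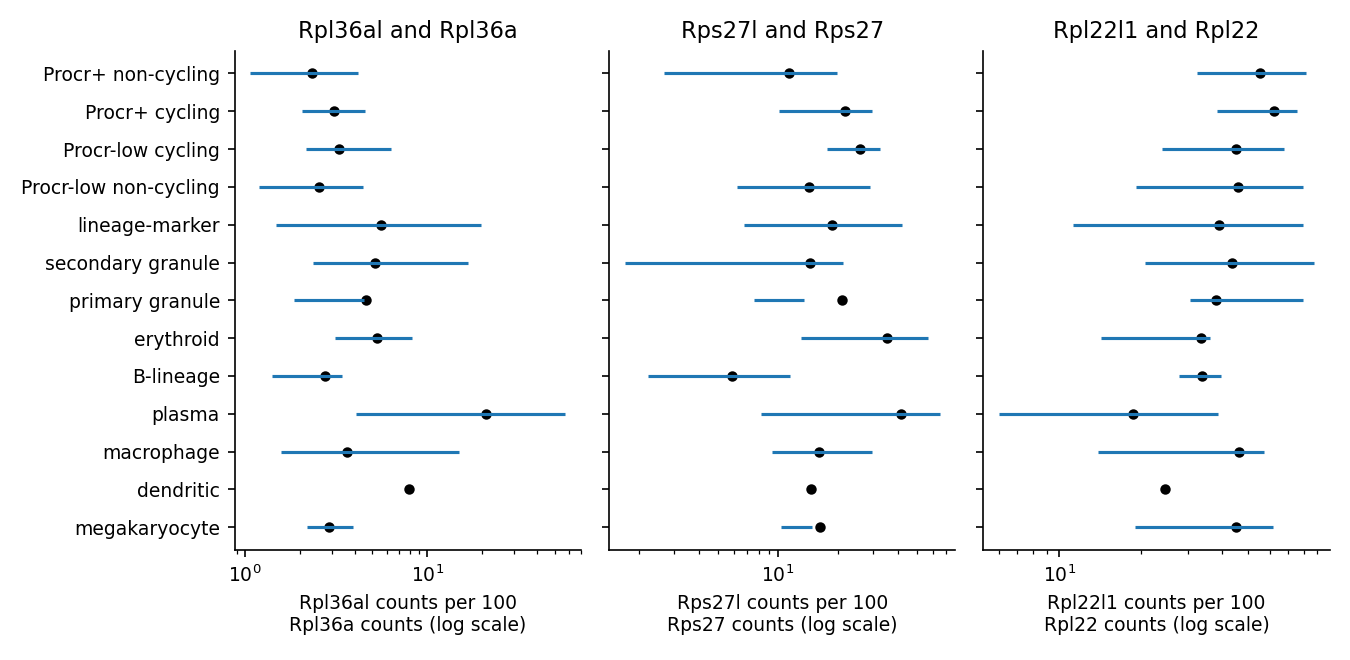
Counts of a related gene per 100 counts of its partner (x axis, log scale) by class of cells (y axis), for Rpl36al, Rps27l and Rpl22l1; points are summed counts and lines span the lowest to highest library with at least 5 such cells, where 2 or more libraries have them. Plasma cells have the highest point for Rpl36al (21.0) and Rps27l (41.3) and the lowest for Rpl22l1 (18.7).

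The 3 libraries that stood apart were found by their Rpl36 level, under 0.5 of the median over 57 libraries. In their 181 Procr+ non-cycling cells Rpl36, a large-subunit gene, was at 1310 to 1480 CPM, against 4020 to 6710 CPM in the 54 other libraries. In all, 13 members were lower in each of the 3 than in any other library, against 0.952% of all genes, and 1, Rps7, was higher than in any other (0.0348%). The 13 included 3 acidic stalk genes, Rplp0, Rplp1 and Rplp2, and Rps29, Rps21, Rpsa, Rpl28, Rpl14, Rpl18, Rps10 and Rpl8. Rplp2 was at 1140 to 1320 CPM against 2160 to 5680 CPM, and Rps29 at 1680 to 1900 against 3080 to 8130 CPM. Rpl36 was used to find the libraries, so its own difference is a description. Rps27 and Rps9 were not among these genes. They held 11 of the Procr+ cycling, 10 of the Procr-low cycling and 7 of the lineage-marker cells. What sets them apart was not tested.

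**Figure D5:**
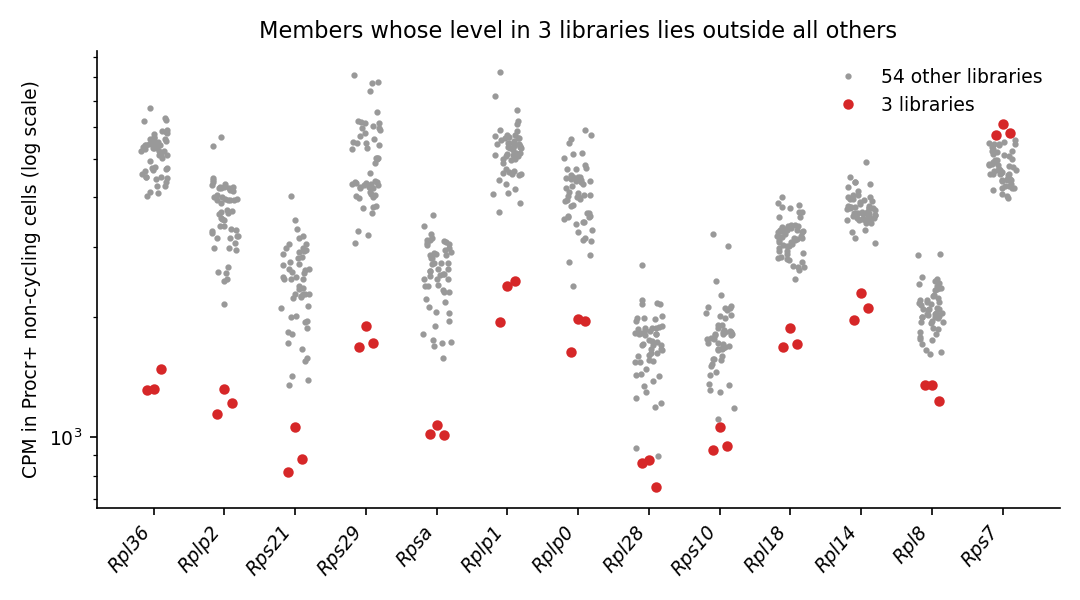
CPM in Procr+ non-cycling cells (y axis, log scale) of 13 of the 14 members whose level in 3 libraries (red) lies outside that of all 54 other libraries (grey), ordered by the size of the difference (x axis). For Rpl36 the 3 libraries sit at 1310 to 1480 CPM and the others at 4020 to 6710 CPM, while Rps7 is higher in the 3.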

How the data were processed

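Values are whole-number counts, deposited by the authors without normalization as 1 gene-by-cell table. Per the labels' protocols, singly sorted cells were barcoded in tubes, their cDNA amplified and pooled, and libraries enriched for 3' ends (STRT-type Smart-seq2). Reads were handled with HISAT2 2.1.0, HTSeq 0.9.1 and Trimmomatic 0.36 on GRCm38, per the submitters' processing notes. Read strand, multi-mapping rules and whether reads or molecules were counted are not given in the sources used here. Left unused were 17 columns, the cells of 1 library. No doublet caller was run, since cells were sorted singly, and 0 cells had identical columns; barcodes shared between libraries could not be counted from the cell names.

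Of 4271 cells, 76 had under 1000 genes and 10 more had over 10% mitochondrial counts. Counts were summed per class, scaled to CPM and compared as log2 of CPM plus 1. Genes at 10 CPM or more were compared, and a difference of at least 0.5 was counted as past the limit. Libraries are not replicates; directions over libraries used those with at least 5 cells of both classes, and lineages with at least 20 cells were described. With 1 pooled sample there was no test. Named members are the 5 highest and 5 lowest of each comparison, the 5 with most counts, members of fixed lists past 0.5 and those under 10 CPM; for single lineages some of these are given as counts, and a few are not reported here. Examples from the translation lists, the partners in pairs, and the members of the 3 libraries were picked after their values were seen. Members, lists and cell limits were chosen with earlier results of these data known. All 86 members matched GENCODE M21, used for positions, overlaps and 50-base words of the last 300 transcript bases. The comparison was also run on simulated counts drawn independently for each cell. These had no library differences and no amplified copies, so that run does not bear on either. Python 3.11.15, numpy 2.4.6, pandas 2.3.3 and scipy 1.17.1 were used.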

Additional observations from a re-analysis of the deposited data

How the results depend on the processing

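Shares and medians were held to their SD over libraries and counts to within 1.5 times. The SD was 0.10 for the Procr+ cycling median, 0.14 for Procr-low cycling and 0.23 for lineage-marker cells. For shares it ran from 2.28 to 4.47 percentage points. The Cd34+ Flt3+ median, with 2 shared libraries, was held to a fixed 0.1 instead. These limits exceed the medians in Procr-low cycling (−0.10) and Cd34+ Flt3+ cells (−0.06), so staying within them does not show that those differences hold. A count such as 80 of 83 had no room to rise by 1.5 times. Over 17 alternative settings, 170 of 177 values for the class shares and the 4 main comparisons stayed within these limits, and 0 changed direction. The 7 others moved by construction. With counts outside the members and mitochondrial genes as the denominator, the share was 29.8% in Procr+ non-cycling, 23.6% in Procr+ cycling and 25.8% in Procr-low cycling cells. Among the 26 measured members with unique ends, 22 were lower in Procr+ cycling, 15 in Procr-low cycling, 25 in lineage-marker and 19 in Cd34+ Flt3+ cells. Of the single lineages, 4 changed sign. Centring on the median gene gave 0.18 in erythroid, 0.30 in B-lineage and 0.03 in megakaryocyte cells. Thinning to 20000 counts gave 0.01 in primary granule cells, and cells with Procr under 10 CPM gave 0.08 in erythroid and 0.13 in megakaryocyte cells. The median member in Procr+ cycling cells ran from −0.30 to −0.14 and in lineage-marker cells from −0.40 to −0.18. Leaving out Procr-high lineage cells, the 5 granule-rich libraries or the 3 libraries that stood apart, and keeping only unique ends, were chosen after seeing the data. Thinning left out 81 Procr+ non-cycling and 128 lineage-marker cells. No paired analysis was possible because the columns carry no sample or replicate number; classes were set side by side within libraries only as directions, since libraries are not replicates.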
